A study of Mus musculus with 8 samples.

Results

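Neutrophil granule protein genes were followed in RNA from cheek skin of mice that had received brain natriuretic peptide (BNP), a peptide that evokes scratching when injected into skin. The 9 genes were taken by name from the 18901 genes of the deposited table, and all 9 were found: Mpo, Elane, Prtn3 and Ctsg, whose proteins are stored in azurophil granules, Ltf, Camp and Ngp, stored in specific granules, Mmp8, stored in specific and gelatinase granules, and Chil3, a chitinase-like protein of mouse neutrophils that macrophages also make. The samples were 1 library from each of 4 conditional knockout (cKO) mice, TBX20fl/fl;K14-Cre, and 4 control mice, TBX20fl/fl. The cKO mice carry the floxed Tbx20 allele on both chromosomes and a Cre recombinase under the keratin 14 promoter, which is active in basal keratinocytes and not in neutrophils, so that Tbx20, a T-box transcription factor gene, is deleted in keratinocytes. Control mice carry the same floxed alleles without Cre. The mice were 7-week-old females, bred from a K14-Cre line of C57BL/6N background and a floxed line of C57BL/6J background. Every mouse received 10 µg of BNP intradermally in the cheek, was recorded for 30 min and was killed 5 h later. RNA from skin without BNP was not analysed here, so the comparison is between genotypes after BNP.

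Neutrophils make their granule proteins in the bone marrow, in an order. Azurophil granules are filled first, at the promyelocyte stage, with myeloperoxidase and serine proteases. Specific granules follow with lactoferrin, cathelicidin and related proteins, and gelatinase granules come last. Transcription of most of these genes has stopped by the time a neutrophil enters the blood, and the mature cell in tissue carries the proteins with little of the messenger RNA. The Ets family factor encoded by Spi1, the C/EBP family and Myb are known activators of these genes in myeloid precursors.

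Each library was summarised by an estimated read count per gene, which the authors left without normalization, and by FPKM, which is fragments scaled to transcript length and library size, the scale used here to compare levels between genes. Totals lay between 16056282 and 19880654 counts per mouse, and 3 counts, taken as the detection floor, correspond to 0.151 to 0.187 CPM, counts scaled to the library total; this floor covers counting error only. One library stood apart, that of control replicate 2: its median Spearman correlation with the other mice over all genes was 0.936, against 0.978 to 0.990 for the others, and its deviation from the mean of the mice fell with transcript length (Spearman correlation -0.782 across 13298 genes, which are not independent replicates, against -0.353 to 0.623 in the other mice). Tbx20 itself gave between 0 and 3.01 counts per library in either genotype, at about the floor or below, and these libraries cannot show its deletion. The labelled tissue was met by its markers: Krt14 and Krt10, the defining keratins of basal and suprabasal keratinocytes, had mean levels of 1214 and 1131 FPKM. Skeletal muscle transcripts were abundant as well, with Acta1 at a mean of 3099 FPKM. The 4 muscle markers read here summed to 8353 to 14441 CPM in cKO mice and 9649 to 12690 CPM in control mice. The 5 keratinocyte markers summed to 6176 to 7978 CPM and 5320 to 8115 CPM.

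Apart from Chil3, the granule genes were scarce in the skin of both genotypes, and most of the 9 estimates were lower in cKO mice. Reads of Mpo came mostly from control mice, with 1 count in all 4 cKO mice together and 27 counts in the 4 control mice. Mmp8, neutrophil collagenase, had a mean level of 1.21 ± 0.542 FPKM in cKO mice and 2.81 ± 1.46 FPKM in control mice (SD, n = 4 each). The estimates of Ltf and Camp were near or above 0, with large errors. None of the 9 genes passed the threshold of an adjusted p of 0.05 in the edgeR quasi-likelihood test, with Benjamini-Hochberg adjustment over all genes, and neither did any other gene. In whole skin, fewer neutrophils and less RNA per neutrophil cannot be told apart.

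The levels of the 9 genes spanned a wide range. Chil3 was highest, with a mean of 16.9 FPKM over the 8 mice (4.99 to 36.99 FPKM), above 75.3% of all genes in the table. Mmp8 was next at 2.01 FPKM, followed by Prtn3 at 1.04, Ctsg at 0.879, Camp at 0.423, Elane at 0.243, Ngp at 0.168, Ltf at 0.109 and Mpo at 0.0775 FPKM. Only the ranges of Chil3 and Mmp8 lay apart, with Chil3 above Mmp8 in 8 of 8 mice. Every other pair of neighbours in this order overlapped in range, and Mmp8 was above Prtn3 in 6 of 8 mice, Prtn3 above Ctsg in 4 of 8 and Ctsg above Camp in 7 of 8. Mmp8 and Chil3 together held 91.0% of the counts of the 9 genes, so that the other 7 genes rested on 31 to 77 counts per mouse in all.

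**Figure D1:**
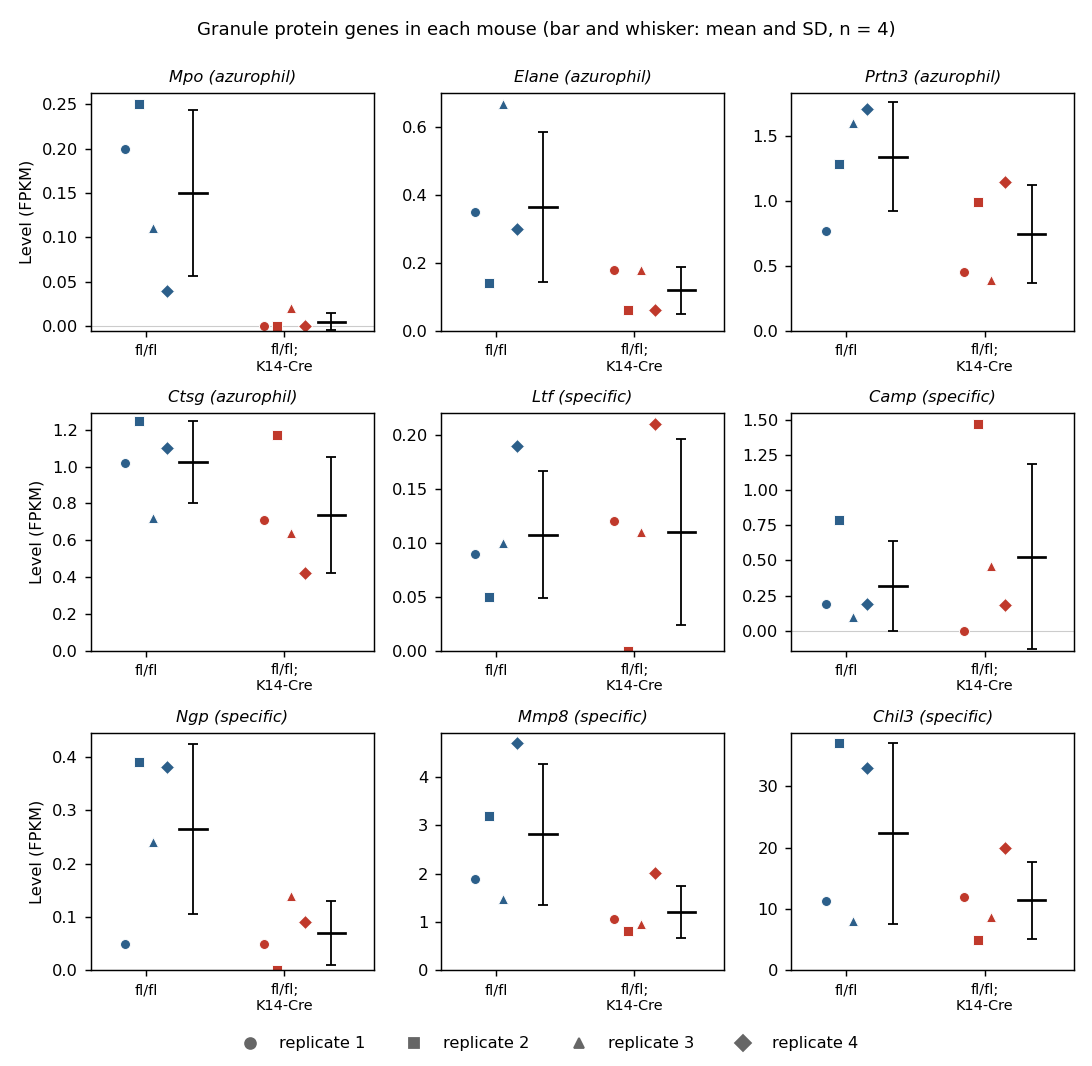
Level of each of the 9 granule protein genes in each mouse, in FPKM on a linear axis with its own scale per gene. Symbols mark the replicate number (blue control, TBX20fl/fl; red cKO, TBX20fl/fl;K14-Cre), and the bar and whisker show the mean and SD of 4 mice. Mpo is at 0 to 0.02 FPKM in cKO mice and at 0.04 to 0.25 FPKM in control mice, while the ranges of the other 8 genes overlap.

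Mpo encodes myeloperoxidase, the enzyme that makes hypochlorous acid from hydrogen peroxide and gives pus its green colour. In replicates 1 to 4 its counts were 0, 0, 1 and 0 in cKO mice and 10, 10, 5 and 2 in control mice. The groups did not overlap, although the lowest control mouse, replicate 4, was itself under the floor of 3 counts. Scaled to total counts, the ratio of control to cKO mice was 28.8, with a 95% exact conditional binomial interval of 4.74 to 1177 that covers counting error only. The difference in FPKM (0.005 ± 0.01 against 0.15 ± 0.0935, SD, n = 4 each) had p = 0.0286 in a two-sided exact permutation test, the smallest p that 4 against 4 mice allow. Fitted across all genes, edgeR gave Mpo a log2 fold change of -4.47 (SE 1.00, Benjamini-Hochberg adjusted p = 0.498), a value that depends on the prior count because most of the cKO mice are at 0. Mpo entered this fit only through the reads of the control mice, the group where it was higher. If mice of the same replicate number are taken as pairs, 4 pairs allow no two-sided exact p below 0.125.

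Elane and Prtn3 encode neutrophil elastase and proteinase 3, serine proteases that are neighbours in the genome. The counts of Elane were 3, 1, 3 and 1 in cKO mice and 6, 2, 11 and 5 in control mice. Only control replicate 2, with 2 counts, lay within the range of the cKO mice. The totals of 8 and 24 counts give a ratio of control to cKO mice of 3.20 (95% exact conditional binomial interval 1.39 to 8.23, counting error only), and the exact permutation p of the FPKM difference was 0.0857. Prtn3 was better covered, at 0.45, 0.99, 0.39 and 1.14 FPKM in cKO mice and 0.77, 1.28, 1.6 and 1.7 FPKM in control mice. Its groups overlapped through control replicate 1, which lay below 2 of the cKO mice, and the exact permutation p was 0.114. The log2 fold changes of edgeR were -1.71 (SE 0.573) for Elane and -1.01 (SE 0.430) for Prtn3, both with an adjusted p of 0.498.

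Ctsg encodes cathepsin G, a further azurophil serine protease, and mast cells also express it. Its levels were 0.71, 1.17, 0.64 and 0.42 FPKM in cKO mice and 1.02, 1.25, 0.72 and 1.1 FPKM in control mice. The groups overlapped through cKO replicate 2, and the difference was within the spread between mice when replicate numbers were not used (exact permutation p = 0.2, log2 fold change -0.65, SE 0.394, adjusted p = 0.501 in edgeR). Blocked by replicate number, the estimate for Ctsg was -0.69 (log2, SE 0.320, adjusted p = 0.405 in edgeR). Without control replicate 2, the library that stood apart, the log2 fold change of Ctsg was -0.40. Added up, the 4 azurophil genes had 24, 41, 23 and 30 counts in cKO mice and 49, 50, 57 and 57 counts in control mice. The ranges of these sums lay apart, which is a description only, since the sums include Mpo and Elane, whose reads came mostly from control mice.

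The 3 specific granule genes gave estimates of different sign. Ltf encodes lactoferrin, which binds iron, and its counts were 6, 0, 6 and 11 in cKO mice and 5, 2, 5 and 10 in control mice. These ranges nearly coincided (log2 fold change -0.13, SE 0.731, adjusted p = 0.926 in edgeR). Camp encodes the cathelicidin precursor, an antimicrobial peptide that keratinocytes also make, and its counts were 0, 16, 5 and 2 in cKO mice and 2, 7, 1 and 2 in control mice. In both genotypes replicate 2 was the highest, and the estimate was 0.57 with a large error (SE 1.05, adjusted p = 0.765 in edgeR). Its direction depended on single mice: it was -0.67 without cKO replicate 2 and 1.64 without control replicate 2. Ngp encodes neutrophilic granule protein, a cystatin-like protein, and its counts were 1, 0, 3 and 2 in cKO mice and 1, 6.89, 5 and 8 in control mice. All control mice but replicate 1 lay above the cKO mice, and the ratio of totals was 3.73 (95% exact conditional binomial interval 1.46 to 11.3, counting error only). The log2 fold change of Ngp was -2.01 (SE 0.832, adjusted p = 0.498 in edgeR), and the exact permutation p in FPKM was 0.114. The sums of the 3 genes overlapped, at 7 to 16 counts in cKO mice and 8 to 20 counts in control mice.

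Mmp8 encodes a collagenase that cleaves fibrillar collagen. Its counts were 49, 39, 45 and 96 in cKO mice and 88.8, 123, 67 and 217 in control mice. The level was 1.06, 0.82, 0.95 and 2.01 FPKM in cKO mice and 1.88, 3.19, 1.47 and 4.71 FPKM in control mice. cKO replicate 4 was the highest of its group and control replicate 4 of the other, so that the groups overlapped only through cKO replicate 4, which exceeded control replicates 1 and 3. The exact permutation p was 0.0857, and edgeR gave a log2 fold change of -1.41 (SE 0.438, adjusted p = 0.498).

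Chil3 had 345, 147, 255 and 589 counts in cKO mice and 332, 885, 226 and 942 counts in control mice. Its level was 12.02, 4.99, 8.70 and 19.88 FPKM in cKO mice and 11.36, 36.99, 8.00 and 33.02 FPKM in control mice. Control replicates 2 and 4 stood above all other mice, while control replicates 1 and 3 lay within the range of the cKO mice. The means of 11.4 ± 6.34 and 22.3 ± 14.8 FPKM (SD, n = 4 each) differed by less than the spread between mice (exact permutation p = 0.286), with a log2 fold change of -1.23 (SE 0.606, adjusted p = 0.498 in edgeR). Without control replicate 2, the library that stood apart, the log2 fold change of Chil3 was -0.65 and that of Mmp8 was -1.19. Over all edgeR and DESeq2 alternatives, Mmp8 ranged from -1.75 to -1.14 and Chil3 from -1.62 to -0.65.

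**Figure D2:**
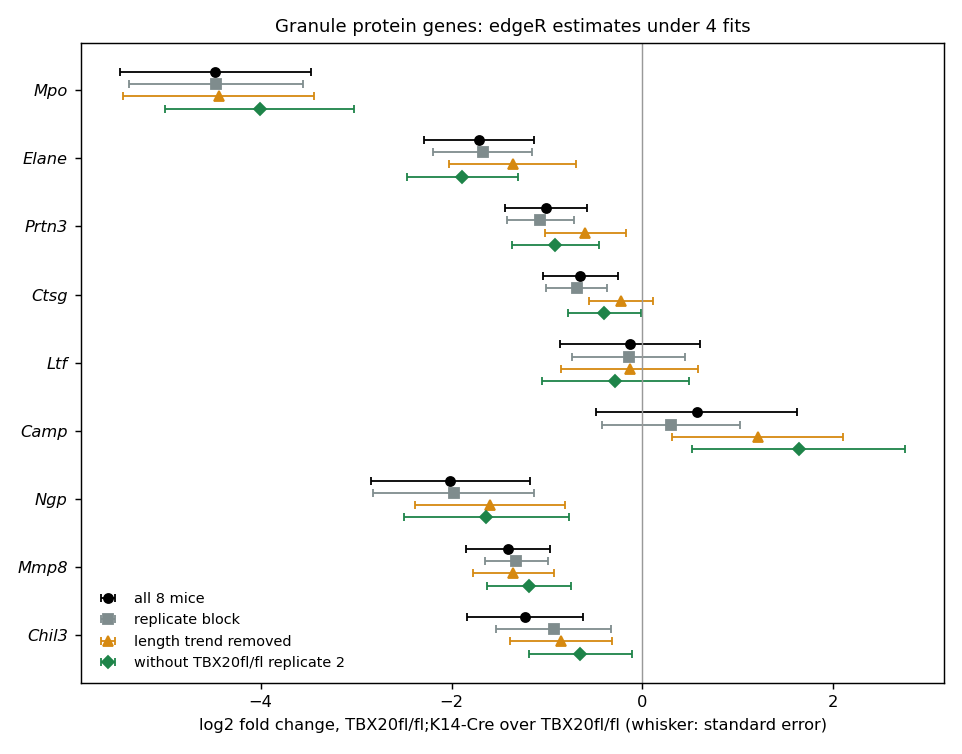
Log2 fold change of each gene, cKO over control, with its standard error, from edgeR with all 8 mice, with the replicate number as a block, with a trend on transcript length removed from each mouse, and without control replicate 2. Mmp8 stays between -1.41 and -1.19 in the 4 fits and Mpo between -4.47 and -4.01, while Camp runs from 0.30 to 1.64.

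Over the list, 8 of the 9 genes had a lower estimate in cKO mice, and the median log2 fold change was -1.23, against 0.026 over all 17124 genes. None of the 9 passed the adjusted threshold in edgeR, where 0% of all genes did. At an unadjusted p under 0.05, edgeR counted 1431 genes, 1012 of them lower in cKO mice, which is 5.91% of the genes tested. Of the 9 granule genes, 5 were in that class: Mpo, Elane, Prtn3, Ngp and Mmp8. Mpo, Elane and Ngp had fewer than 10 counts in the cKO mice together and reached the filter, 10 counts over the 8 mice, only through the control mice, so the count of 5 is a description. Of the other 6 genes, Prtn3 and Mmp8 had an unadjusted p under 0.05 and the median was -0.83; without the filter, the count over the 9 genes was again 5 and the median -1.22. Without control replicate 2, 3 of the 9 genes had an unadjusted p under 0.05, all with lower estimates, where 4.5% of all genes did. DESeq2's Wald test placed 10 genes past the adjusted threshold (0.0584% of those tested), none of them among the 9, gave 6 of the 9 an unadjusted p under 0.05 with a lower estimate, where 8.29% of all genes had one, and had adjusted p-values of 0.0974 for Mpo and 0.164 for Mmp8. On log2(FPKM + 1), limma tested 8 of the 9 genes, leaving out Mpo for a mean FPKM under 0.1, and placed none past an adjusted p of 0.05, as for 0% of the 15969 genes it tested. Of the 8, 4 (Elane, Prtn3, Ngp and Mmp8) had an unadjusted p under 0.05 with a lower estimate in limma, against 3.39% of all genes it tested; Ngp passed this filter only through the control mice, so this count too is a description. Mpo was the 1 gene of 9 whose FPKM ranges did not overlap, against 1.73% of 18890 genes that were lower in cKO mice without overlap and 4.71% that were higher. With mice compared by replicate number, the cKO mouse had the lower FPKM in all 4 pairs for 5 of the 9 genes (Mpo, Elane, Prtn3, Ctsg and Mmp8), against 8.89% of the 18890 genes; as for the count of 5 above, Mpo and Elane rest on the reads of the control mice.

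With a trend on transcript length removed from each mouse, the log2 fold changes of Prtn3, Ctsg and Chil3 moved to -0.60, -0.23 and -0.85, those of Elane and Ngp to -1.36 and -1.60, and 2 of the 9 genes, Mpo and Mmp8, had an unadjusted p under 0.05 with a lower estimate, where 5.19% of all genes had one. The median over the 9 genes was then -0.85. Mmp8 at -1.35, Mpo at -4.44 and Ltf at -0.13 stayed near the values above, and Camp was at 1.21.

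Mmp8 and Chil3 varied together between mice. On log2 CPM after TMM scaling, Pearson's r over the 8 mice was 0.924 (exact permutation p = 0.00166, 0.00313 after Benjamini-Hochberg adjustment over 3 relations) and Spearman's rho was 0.857 (exact permutation p = 0.0107, adjusted 0.0321). Without control replicates 4 and 2, the mice farthest from the median of Mmp8, r was 0.743, and with each genotype centred on its own mean it was 0.954. The points share library, depth and genotype, and 4 mice per genotype are too few for a correlation within each. The ratio of Chil3 to Mmp8 in FPKM was 9.12 ± 2.22 in cKO mice and 7.52 ± 2.79 in control mice (SD, n = 4 each, exact permutation p = 0.4), so that no difference in their proportion was detected.

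**Figure D3:**
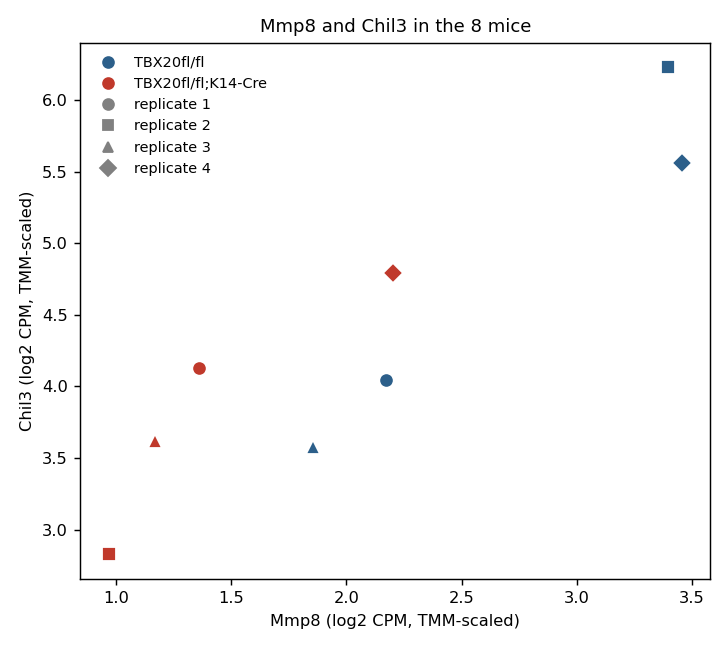
Chil3 against Mmp8 in each mouse, both as log2 CPM after TMM scaling. Blue symbols are control mice and red symbols cKO mice, with the replicate number by shape. Control replicates 2 and 4 lie at the upper right and cKO replicate 2 at the lower left, and Pearson's r over the 8 mice is 0.924.

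The genes whose level followed Mmp8 and Chil3 most closely were sought among the 13296 genes averaging 50 counts or more, by Pearson's r of log2 CPM over the 8 mice and with no test. For Mmp8 these included Timp1 (r = 0.96), which encodes an inhibitor of metalloproteinases, and Spp1 (r = 0.96), which encodes osteopontin. Timp1 had 12.01, 15.68, 13.14 and 26.62 FPKM in cKO mice and 26.43, 47.81, 24.51 and 50.29 FPKM in control mice, with replicate 4 the highest of each genotype as for Mmp8, and again only cKO replicate 4 reached into the range of the control mice. For Chil3 they were Ifi202b (r = 0.93), an interferon-inducible gene, Serpinb2 (r = 0.92), which encodes plasminogen activator inhibitor type 2, and Armc7 (r = 0.90). Without control replicate 2, these values were 0.95 for Timp1 and 0.95 for Spp1 and 0.85 to 0.88 for those following Chil3. The other 7 granule genes had mean counts under 20 and were not used for such a search.

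The promoters of the 9 genes were read from RefSeq sequence (GRCm38.p6), from 250 bases before to 50 after the start of each gene, and all 9 had an entry. They were searched on both strands for AGGAAGT, a core bound by the Ets factor that Spi1 encodes, for AACGG, a Myb core, and for TTNNGNAA, a C/EBP pattern. These motifs were chosen after the windows had been seen, and none of the matches overlapped another. AGGAAGT was in 6 of the 9 windows, against 9.35% of 32851 such windows over all genes. The 6 stretches are shown because they are the feature most of these promoters share; each has 47 bases, is printed 5′ to 3′ on the strand that reads the motif, and has the motif in capitals.
Mpo, chr11:87793541-87793587, plus strand: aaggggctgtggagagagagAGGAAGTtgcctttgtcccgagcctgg
Elane, chr10:79886208-79886254, plus strand: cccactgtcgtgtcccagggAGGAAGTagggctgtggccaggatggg
Prtn3, chr10:79879553-79879599, plus strand: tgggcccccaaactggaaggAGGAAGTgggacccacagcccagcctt
Ctsg, chr14:56102754-56102800, minus strand: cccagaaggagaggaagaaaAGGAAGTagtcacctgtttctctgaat
Mmp8, chr9:7558188-7558234, minus strand: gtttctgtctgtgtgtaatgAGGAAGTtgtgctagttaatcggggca
Chil3, chr3:106167598-106167644, plus strand: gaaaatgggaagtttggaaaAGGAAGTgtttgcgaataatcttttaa
The first base of the match lay at -223 for Mpo, -84 for Elane, -94 for Prtn3, -206 for Ctsg, -221 for Mmp8 and -60 for Chil3, counted from the gene start. All 4 azurophil genes had it, and Ltf, Camp and Ngp did not. AACGG was in the windows of Elane and Prtn3, 2 of the 9, against 17.4% of all windows. TTNNGNAA was in 4 of the 9, those of Ltf, Ngp, Mmp8 and Chil3, against 40.7% of all windows. A match describes letters and not a bound site.

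The 250 bases before the start are given for Mmp8 and Chil3, the genes with the most counts, on the coding strand, with the reverse complement of AGGAAGT in capitals.
Mmp8, chr9:7558179-7558428, plus strand: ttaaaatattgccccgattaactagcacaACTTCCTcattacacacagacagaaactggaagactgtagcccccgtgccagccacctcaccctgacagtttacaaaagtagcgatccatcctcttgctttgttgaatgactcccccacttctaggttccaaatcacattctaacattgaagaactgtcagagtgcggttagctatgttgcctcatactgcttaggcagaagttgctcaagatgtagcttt
Chil3, chr3:106167565-106167814, minus strand: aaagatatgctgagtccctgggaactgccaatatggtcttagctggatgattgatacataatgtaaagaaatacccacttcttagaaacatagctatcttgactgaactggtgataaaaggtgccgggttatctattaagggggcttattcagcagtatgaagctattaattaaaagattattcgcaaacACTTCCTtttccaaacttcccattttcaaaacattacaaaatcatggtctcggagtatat
The AGGAAGT match of Chil3 is followed directly by a C/EBP match at -53, and Chil3 had 3 C/EBP matches in its window where Mmp8 had 2. Neither gene passed the adjusted threshold between genotypes, as given above.

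The genes of this group lie on 5 chromosomes of GRCm38. Prtn3 (chr10:79879667-79883174) and Elane (chr10:79886312-79888216) are both on the plus strand with 3137 bases between them. Camp (chr9:109847377-109849456, minus strand), Ngp (chr9:110419808-110423012, plus strand) and Ltf (chr9:111019292-111042766, plus strand) lie within 1195390 bases, and Mmp8 (chr9:7558429-7568486, plus strand) is on the same chromosome, far from them. Mpo is at chr11:87793784-87804412 (plus strand), Ctsg at chr14:56099885-56102574 (minus strand) and Chil3 at chr3:106147554-106167564 (minus strand). Of the 16 nearest protein-coding neighbours that are not themselves granule genes here, 14 were tested, and 5 had an unadjusted p under 0.05 in edgeR, all lower in cKO mice, beside 5.91% of all genes: Mcpt8, Ccrl2, Mmp10, Mmp27 and Chia1, named after their values were seen. Mcpt8, with 4 counts in cKO mice and 21 in control mice, and Chia1, with 4 and 14, reached the filter only through the control mice, so this count is a description. It was 4 without control replicate 2 and 4 with the length trend removed.

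Reads of 50 bases can be shared between similar genes. Of the 50-base stretches in annotated transcripts of Chil3, 26.9% also occur in Chil4 or Gm6522; Chil4 was at 0 to 0.03 FPKM in every mouse. For Mpo 9.46% of stretches were shared, mostly with Gm11505, and for Prtn3 6.45%, with Plppr3. No stretch of the other 6 genes was shared with another gene. In the deposited table Mpo carries coordinates that join an alternate sequence to chromosome 11 and lists 4 transcripts, so its position is given here from RefSeq.

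Further granule proteins and proteins that handle granules were described from a companion list of 47 genes, 46 of them in the table and 44 tested. Of these 44, 35 had a lower estimate in cKO mice and 9 a higher one. Named after their values were seen, Mmp9 (-0.0022) and Itgam (0.014) were near 0, and Mmp25 (0.14) and Cd177 (0.27) were higher. At an unadjusted p under 0.05, 17 were lower in cKO mice and 0 higher, beside the 5.91% of all genes that were lower at that p. None passed the adjusted threshold in edgeR. The median log2 fold change was -0.44 over the 44 genes, -0.29 without control replicate 2 and -0.18 with the length trend removed, and 12 and 11 genes were then lower at that p. The genes with the smallest p were Lcn2, Hp and Stfa2l1. Lcn2 encodes lipocalin 2, a specific granule protein that binds bacterial siderophores and that keratinocytes also make, and its level was 15.0 ± 2.81 FPKM in cKO mice and 39.3 ± 11.7 FPKM in control mice (SD, n = 4 each). These ranges did not overlap (log2 fold change -1.61, SE 0.302, adjusted p = 0.498 in edgeR and 0.00307 in DESeq2's Wald test). The log2 fold change of Lcn2 was -1.28 without control replicate 2 and -1.08 with the length trend removed. Hp encodes haptoglobin, which binds free haemoglobin, and stood at 372 ± 73.6 and 755 ± 194 FPKM, also without overlap (log2 fold change -1.19, SE 0.227, adjusted p = 0.498 in edgeR and 0.00115 in DESeq2's Wald test). In those 2 fits Hp was at -1.12 and -0.89. Of all genes, 1.73% were lower in cKO mice without overlap. Stfa2l1, a stefin-like gene, stood at 3.10 ± 0.804 and 9.82 ± 5.46 FPKM (log2 fold change -1.93, SE 0.486, adjusted p = 0.498 in edgeR and 0.0687 in DESeq2's Wald test). Its log2 fold change was -1.26 without control replicate 2 and -1.05 with the length trend removed. The genes with the highest level were Lyz2, Ctsd and Hp. Lyz2 encodes lysozyme, which macrophages make as well, at 901 ± 182 FPKM in cKO mice and 1346 ± 519 FPKM in control mice (log2 fold change -0.83, and -0.36 without control replicate 2 and -0.27 with the length trend removed). Ctsd encodes the lysosomal protease cathepsin D and had nearly equal means of 691 and 667 FPKM (log2 fold change -0.13, and 0.034 and 0.043 in those 2 fits).

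Transcription factors of granulocyte development were read in the same way. Of 12 tested, 3 had an unadjusted p under 0.05 and a lower estimate, Cebpd, Cebpe and Spi1, 0 had a higher estimate at that p, and none passed the adjusted threshold in edgeR. Over all genes 5.91% were lower at that p, and the count of 3 fell to 1 without control replicate 2 and to 1 with the length trend removed. Cebpe, the C/EBP factor needed for specific granules, was at 1.25 ± 0.213 FPKM in cKO mice and 2.02 ± 0.913 FPKM in control mice (log2 fold change -0.89, adjusted p = 0.498 in edgeR, and -0.47 with the length trend removed). Spi1, which macrophages also express, had a log2 fold change of -0.47, and of -0.20 with the length trend removed. Cebpa, Gfi1 and Myb, which act at earlier stages, had log2 fold changes of 0.12, 0.20 and 0.39, and of 0.036, 0.036 and 0.23 without control replicate 2. Their mean levels over the 8 mice were 119, 0.311 and 1.01 FPKM. Whole-skin levels cannot assign these genes to granulocytes.

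Markers of mature neutrophils were read beside the granule genes. Of 10 such markers, 8 had an unadjusted p under 0.05 with a lower estimate in cKO mice, with a median log2 fold change of -1.08, beside 5.91% of all genes that were lower at that p. The count was also 8 without control replicate 2 and with the length trend removed, with medians of -0.84 and -0.94, where 4.5% and 5.19% of all genes were lower. Their summed level was 224 to 341 CPM in cKO mice and 375 to 515 CPM in control mice, without overlap, and none of the 10 was at 0 in all mice. Il1r2, the decoy receptor of interleukin 1, made up 37.8% to 64.1% of this sum per mouse, and the sums of the other 9 markers overlapped, at 80.6 to 177 CPM in cKO mice and 152 to 291 CPM in control mice. Ly6g, a defining surface marker of mouse neutrophils, was scarce, at 2.02 to 3.75 counts in cKO mice and 6.02 to 8.75 counts in control mice. The mean log2 CPM of the marker list followed Mmp8 over the 8 mice (Pearson's r = 0.908, exact permutation p = 0.00208, adjusted 0.00313; Spearman's rho = 0.810, exact permutation p = 0.0218, adjusted 0.0327; r = 0.940 without control replicate 2 and cKO replicate 1, the mice farthest from the median of the list). Both quantities were lower in cKO mice, so this value includes the difference between genotypes, and with each genotype centred on its own mean r was 0.790. Against Chil3 the values were unchanged by adjustment (Pearson's r = 0.767, exact permutation p = 0.0268; Spearman's rho = 0.548, exact permutation p = 0.171; r = 0.770 without the same mice), and r was 0.571 without control replicate 2 alone and 0.731 with each genotype centred on its own mean. A further list held markers of immature granulocytes or of proliferating cells, and in whole skin Mki67, Top2a, Cd34 and Kit are also expressed by other cells, so it does not mark granulocytes alone. Of 6 tested, Cebpe was lower and Mki67 higher at an unadjusted p under 0.05 (5.91% and 2.45% of all genes), and Fcnb, a marker of neutrophil precursors, had 0 to 1 counts. Without control replicate 2, and likewise with the length trend removed, 0 of the 6 were lower at that p.

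Other cells that make members of the group were read as well. Mast cell markers, which bear on Ctsg, summed to 569 to 650 CPM in cKO mice and 726 to 1052 CPM in control mice. Their median log2 fold change was -0.70, and -0.37 without control replicate 2 and -0.26 with the length trend removed. Of these 7 markers, 4 had an unadjusted p under 0.05 with a lower estimate, also without control replicate 2. Over all genes 5.91% were lower at that p, and 4.5% without control replicate 2, which is the background for each count of lower markers given here. Monocyte and macrophage markers, which bear on Chil3, overlapped, at 856 to 1366 CPM and 712 to 1365 CPM, with 2 of 8 lower at that p, Ly6c2 and Ccr2, and 1 without control replicate 2. Of 4 tested markers of alternatively activated macrophages, 2 were lower at that p, Arg1 and Retnla. The count was 1 without control replicate 2, and 0 with the length trend removed, where 5.19% of all genes were lower. Their median log2 fold change was -0.54, and -0.38 and -0.33 in those 2 fits. Keratinocyte markers, which bear on Camp, had 0 of 5 at that p and sums of 6176 to 7978 CPM and 5320 to 8115 CPM. Red cell markers, a sign of blood in the sample, had 0 of 5 tested at that p and sums of 437 to 907 CPM and 257 to 932 CPM. Of 3 basophil markers 2 were lower, one of them Mcpt8 with the 4 counts in cKO mice given above, and of 2 eosinophil markers tested 1 was lower (0 without control replicate 2), while Epx, the eosinophil peroxidase, had 0 to 1 counts. Of 4 fibroblast markers 1, Col1a1, was higher at that p, as were 2.45% of all genes, and none of 4 skeletal muscle or 4 adipocyte markers had such a p. Neither the neutrophil, mast cell nor macrophage markers passed the adjusted threshold in edgeR, and their part in the granule gene differences was not tested.

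**Figure D4:**
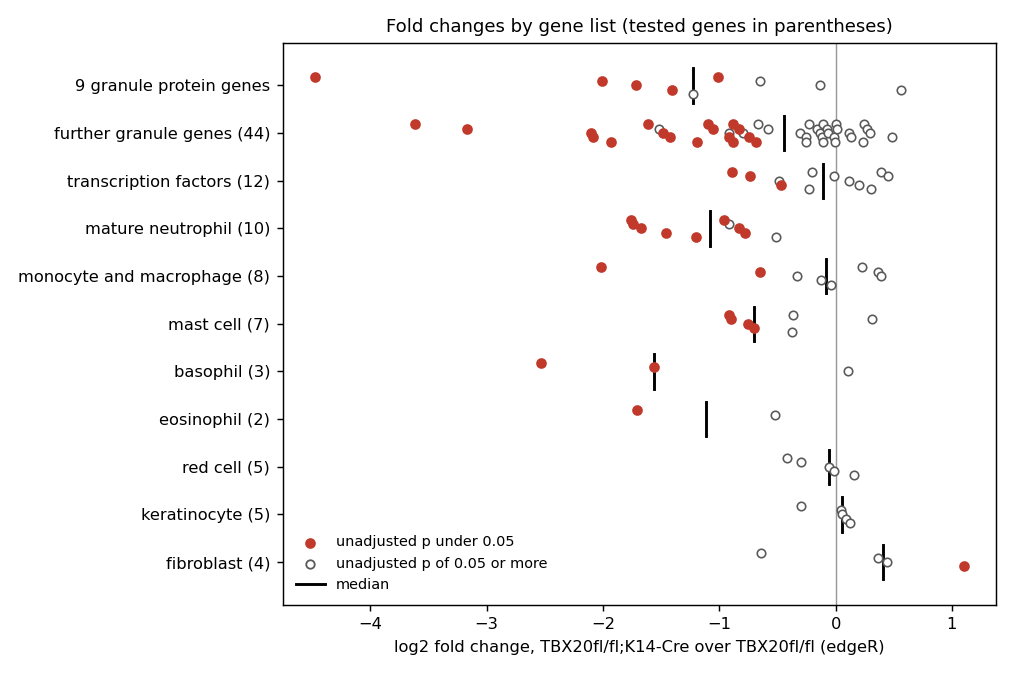
Log2 fold change (cKO over control, edgeR) of each tested gene in the 9 granule protein genes, the companion lists and the cell type marker lists, with the number of tested genes in parentheses and the median as a black line. Markers of immature granulocytes or proliferating cells, alternatively activated macrophages, skeletal muscle and adipocytes are not shown. Filled symbols have an unadjusted p under 0.05 and none has an adjusted p under 0.05. The medians of the 9 granule genes and of the mature neutrophil markers are -1.23 and -1.08, and that of the keratinocyte markers is 0.055.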

How the data were processed

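The authors sequenced cheek skin RNA of 8 mice, 1 library each, as 50-base single-end reads, then filtered these with SOAPnuke (settings n 0.05, q 0.2, l 15) and aligned them with HISAT. The deposited estimated counts are not normalized, 69.0% of those above 0 are not whole, and the program that made them is not given in the sources used here. The authors also deposited FPKM values, made on the Dr. Tom platform, and 16 per-sample columns of TPM and normalized counts that were not used. Columns of the authors' own comparisons (fold changes and p-values) and group means were not used.

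Counts were rounded, and genes with 10 or more counts in all were scaled by TMM and tested by quasi-likelihood in edgeR 4.0.16 (R 4.3.3) with Benjamini-Hochberg adjustment over 17124 genes. FPKM values were tested with limma 3.58.1 (trended eBayes) as log2(FPKM + 1), for genes averaging 0.1 or more, a scale that understates changes of low genes, and per gene by a two-sided exact permutation test over 70 assignments of the mice, unadjusted over the 9 genes. Alternatives were DESeq2 1.42.0 (size factors, Wald test), no filters, a pseudocount of 0.1, the replicate number as a block, a transcript length trend as an offset (fitted on genes averaging 50 counts or more) and each mouse left out. Log2 CPM used a prior count of 2. Summaries used Python 3.11.15 with scipy 1.17.1. The tests were tested on simulated data.

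Groups and replicate numbers are those of the labels. Deviations of mice with the same number correlated at 0.323, 0.275, 0.176 and 0.108 across genes, each over 0.1, which was taken as pairing, though the mice are different animals and mice with different numbers correlated at -0.407 to 0.320. Only the fits with the replicate block use the pairs; the edgeR fit of all mice and the permutation tests do not. P-values measure the spread between these mice.

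The genes and lists were chosen with earlier results of these data known. Named genes are the 9 genes, the 3 genes most like each of those averaging 20 counts or more, the 3 highest and the 3 of smallest p in the companion list, and Cebpe, Gfi1, Cebpa, Spi1 and Myb. Markers beyond these were named after their values were seen. Some genes that this rule names are not reported here.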

Additional observations from a re-analysis of the deposited data

Results flagged for a closer look

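The highest or lowest mouse of each genotype was compared with the other 3 by the gap to its nearest neighbour over the range of the group, for the FPKM of each of the 9 genes, which gives 18 groups of 4 mice. A gap above Dixon's 95% critical value for 4 samples was taken as far from the others, and chance gives about 1 in 20 groups, or 0.9 of 18. There were 2 such mice. Camp in control replicate 2 had 0.79 FPKM, against 0.10 to 0.19 FPKM in the other control mice; this is the library that stood apart from the rest, and the value rests on 7 counts. Mpo in cKO replicate 3 had 0.02 FPKM, against 0 in the other cKO mice, and rests on 1 count. With the other 3 mice at 0, any value above 0 would have been flagged. The rate of 1 in 20 does not hold for counts this low.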

How the results depend on the processing

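No granule gene passed the adjusted threshold under any of the 13 edgeR and DESeq2 alternatives or the 11 limma alternatives. Adjusted p-values ranged from 0.0974 to 0.690 for Mpo and from 0.164 to 0.690 for Mmp8 over the edgeR and DESeq2 alternatives. With the replicate block the median log2 fold change of the 9 genes was -1.07, 4 had an unadjusted p under 0.05 (6.54% of all genes were lower at that p), and the block changed no call. Genes past the adjusted threshold numbered 10 with DESeq2's Wald test against 0 in edgeR; the cause was not tested. Granule genes with an unadjusted p under 0.05 numbered 2 with the length trend removed against 5, and 3 to 6 with each mouse left out: 3 without cKO replicate 1, control replicate 2, control replicate 3 or control replicate 4, and 6 without control replicate 1. The share of all genes lower at that p also moved, from 3.15% (without cKO replicate 1) to 10.9% (without control replicate 1). The median was -1.49 to -0.91 with each mouse left out, the value nearest to 0 without control replicate 2. Genes without overlap between the genotypes numbered 2 on TMM log2 CPM (Mpo and Elane) and 1 to 3 with each mouse left out. There were 3 without control replicate 1 (Mpo, Prtn3 and Ngp), and fewer mice make overlap rarer. Mpo was among the genes without overlap each time. Leaving out a mouse cannot bring overlap to a gene that had none over all mice, so those results for Mpo were fixed beforehand. Mpo also rests on the reads of the control mice, with 1 count in cKO mice and 27 in control mice. The share of all genes lower without overlap was 3.27% on TMM log2 CPM and 2.18% to 5.35% with each mouse left out (4.65% without control replicate 1), against 1.73%. Directions reversed for Ltf and Camp. With each mouse left out, Ltf ran from -0.62 to 0.27 in the count fits (0.27 without cKO replicate 2, 0.25 without control replicate 4) and Camp from -0.67 (without cKO replicate 2) to 1.64; in limma Ltf ran from -0.024 to 0.051 and Camp from -0.11 (without cKO replicate 2) to 0.33. Ltf was at -0.052 in limma with a pseudocount of 0.1. The companion list count was 11 with the length trend removed against 17; this setting and the one without control replicate 2 were chosen for the lists and the neighbours after seeing the data. The other 194 of 203 values of single genes kept their direction and their side of the threshold. Depth limits Mpo, Elane, Ltf, Camp and Ngp most, with mean counts of 3.36 to 5.62 per mouse.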
